A study of Mus musculus with 8 samples.

Results

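Stk25 and the genes of the kinase group and complex in which its protein acts were examined in mouse multipotent progenitors (MPPs). The 9 genes were taken by name from the 37980 gene rows of the table. They were the germinal centre kinase III (GCKIII) genes Stk24, Stk25 and Stk26, their adaptor Pdcd10, the striatin genes Strn, Strn3 and Strn4, Mob4, and Cab39. The genes were chosen by their known membership and with their NA against WT differences in normalised counts of these 8 libraries already in view, so those differences are described here and are not given as a test.

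GCKIII kinases are serine/threonine kinases of the Ste20 family that act on the Golgi apparatus, cell polarity, migration and the response to oxidative stress. Each can bind Pdcd10, which links the kinase to a striatin and so to STRIPAK, the striatin-interacting phosphatase and kinase complex, in which a PP2A phosphatase keeps the kinases in check. Cab39 is not a STRIPAK subunit. It is the scaffold that binds Ste20-type kinases and also joins the kinase LKB1 to its pseudokinase partner STRAD. In blood cells LKB1 signalling is known for its part in the upkeep of stem cells.

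NA MPPs came from NA LSL/+; Vav-Cre mice, in which Cre driven by the blood-cell Vav promoter switches on the NUP98-HOXA10hd fusion, a nucleoporin fragment joined to the homeodomain of HOXA10. WT MPPs came from wild-type CD45.2 mice of matched age. Both were on the C57BL/6 background and were sorted from bone marrow as Lin-CD48-ckit+Sca1+CD135+CD150- cells, with 1000 cells behind each of the 4 NA and 4 WT libraries. The age itself, sex and whether each library came from a separate mouse were not given in the sources used here, so the spread between libraries may be technical. Each library carries the name of its group with its number (NA1 to NA4, WT1 to WT4).

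The libraries held from 3876893 to 4916987 estimated reads. The fourth libraries stood apart: the value of NA4 lay between those of the other 3 NA libraries for 66.5% of the 9000 genes examined, and that of WT4 for 75.4%, against 37.9% to 50.5% in the other 6 libraries. If the fourth libraries are not independent of the other 3 in their group, every SD, SE and p-value over 4 libraries is too small, and whether they are independent was not tested. The differences and shares of the 9 genes are therefore also given without them. Hoxa10, which gives the fusion its homeodomain, was higher in NA at 324 ± 32.0 against 139 ± 8.0 normalised counts (limma adjusted p = 2.57e-05). Whether these Hoxa10 counts came from the fusion or from the gene itself was not tested. Nup98, the other gene of the fusion, was at 85.0 ± 10.9 in NA and 72.2 ± 12.1 in WT, with overlapping ranges (limma adjusted p = 0.443). Of the sorting markers, Kit and Flt3, which encodes CD135, were abundant in every library, and Cd48 and Slamf1, which encodes CD150, were at or below 83.8 normalised counts. Ly6a, which encodes Sca1, and Cd48 were called lower in NA. The defining erythroid gene Slc4a1, the B cell genes Pax5 and Ms4a1, the T cell genes Cd3e, Cd3d, Cd8a and Trac, and the endothelial gene Cdh5 were at 0 in all 8 libraries. Other genes of the same lists were present, with 4470 to 5131 normalised counts for Car2 and 133 to 266 for Tfrc (erythroid list), 87.4 to 256 for Cd79b (B cell), 115 to 150 for Nkg7 (T and NK cell) and 33.7 to 69.2 for Pecam1 (endothelial), and none of these 5 was called. The erythroid gene Car1 was at 0 in all NA libraries and at 1.13 to 71.9 in WT, and the stromal gene Cxcl12 was at 101 in NA3 and at most 28.3 elsewhere, neither of which entered the test. In the 12 granulocyte and monocyte genes, 2 were at 0. Of the 5 tested, 2 were called lower in NA (40.0%, against 7.87% of all tested genes). The list summed to 3139 to 3378 in NA and 3587 to 4587 in WT. The part of these differences in the results was not tested. Xist was at 1104 ± 173 in WT and 1.92 ± 1.0 in NA, while the Y-linked gene Eif2s3y was at 604 ± 70.8 in NA and at most 0.888 in WT, so donor sex and genotype cannot be told apart here.

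Stk25, a kinase of the Golgi apparatus and the oxidative stress response, showed the widest separation of the 9 genes. In the GRCm38 annotation it lies on the minus strand at chr1:93619751-93658659 (ENSMUSG00000026277). The RefSeq start of the gene lies inside this interval, and the 250 bases before that start, chr1:93635728-93635977 on the minus strand of GRCm38.p6, are printed with those of Cab39 (chr1:85793191-85793440, plus strand). They are shown because these were the promoters of the pair of genes that stood furthest apart between the groups. Capitals mark TGACAG, the core that MEIS homeodomain factors, partners of HOX proteins, are known to bind.

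Stk25 promoter: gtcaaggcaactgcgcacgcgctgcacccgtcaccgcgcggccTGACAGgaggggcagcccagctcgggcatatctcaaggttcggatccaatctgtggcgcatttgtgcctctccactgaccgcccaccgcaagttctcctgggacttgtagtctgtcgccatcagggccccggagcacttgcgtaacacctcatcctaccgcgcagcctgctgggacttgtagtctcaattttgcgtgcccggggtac

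Cab39 promoter: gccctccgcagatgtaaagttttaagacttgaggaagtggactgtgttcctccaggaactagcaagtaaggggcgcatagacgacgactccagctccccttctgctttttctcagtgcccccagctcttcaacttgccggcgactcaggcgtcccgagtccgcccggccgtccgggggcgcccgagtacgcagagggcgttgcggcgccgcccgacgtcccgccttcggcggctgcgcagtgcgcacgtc

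Searched on both strands, the 250 bases of Stk25 held 1 TGACAG, and 15.9% of 32851 RefSeq promoters of the same length hold one. The HOX-PBX letters TGATNNAT (in 7.68% of promoters), the AP-1 letters TGANTCA (6.75%), the CRE letters TGACGTCA (1.55%) and the EGR letters GCGNGGGCG (4.70%) were in neither sequence. RefSeq promoters were matched for 8 of the 9 genes. In the other 6 that were matched, the only hit of these 5 motifs was 1 EGR match in Mob4. GC content was 62.4% before Stk25 and 64.8% before Cab39, against a median of 52.4% over all promoters, and CpG pairs numbered 19 and 27 against a median of 6.

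Stk25 measured 654, 612, 796 and 697 normalised counts in NA1 to NA4, and 62.1, 79.3, 77.4 and 63.9 in WT1 to WT4. Every NA library was far above every WT library, and the spread within each group was small beside the gap. The means were 690 ± 78.8 in NA and 70.7 ± 8.90 in WT (SD, n = 4), a 9.76-fold ratio, and the log2 difference was 3.27 ± 0.138 (SE, on log2(normalised count + 1)). Without the fourth libraries it was 3.22 ± 0.189. By the size of this difference Stk25 stood 30th among the 11451 genes that passed the low-value filter (at least 10 normalised counts in at least 4 libraries). Of these genes 97, or 0.847%, were at least 4-fold higher in NA on this scale (log2 of at least 2), and Stk25 and Cab39 were among them. In bulk libraries a larger share of expressing cells cannot be told apart from more RNA in each cell.

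Stk24 (chr14:121286343-121380011, minus strand), the paralog of Stk25 known for its part in cell migration and exocytosis, showed no such separation. It measured 583, 641, 730 and 659 in NA, and 658, 578, 527 and 614 in WT. The ranges of the groups overlapped, and WT1 was higher than NA1, NA2 and the other 3 WT libraries. The means were 653 ± 60.5 and 594 ± 55.5, with a log2 difference of 0.14 ± 0.103 (0.15 ± 0.139 without the fourth libraries).

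Stk26, the third paralog, a Golgi-associated kinase that binds the matrix protein encoded by Golga2, leaned the other way. It measured 156, 227, 139 and 189 in NA, and 229, 254, 235 and 242 in WT. The highest NA value lay just under the lowest WT value. The means were 178 ± 38.5 and 240 ± 10.7 and the log2 difference was -0.45 ± 0.155 (-0.49 ± 0.211 without the fourth libraries). Stk26 is X-linked (chrX:50841047-50893097), and the difference in sex transcripts between the groups runs beside this value. Its part in the result was not tested.

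**Figure D1:**
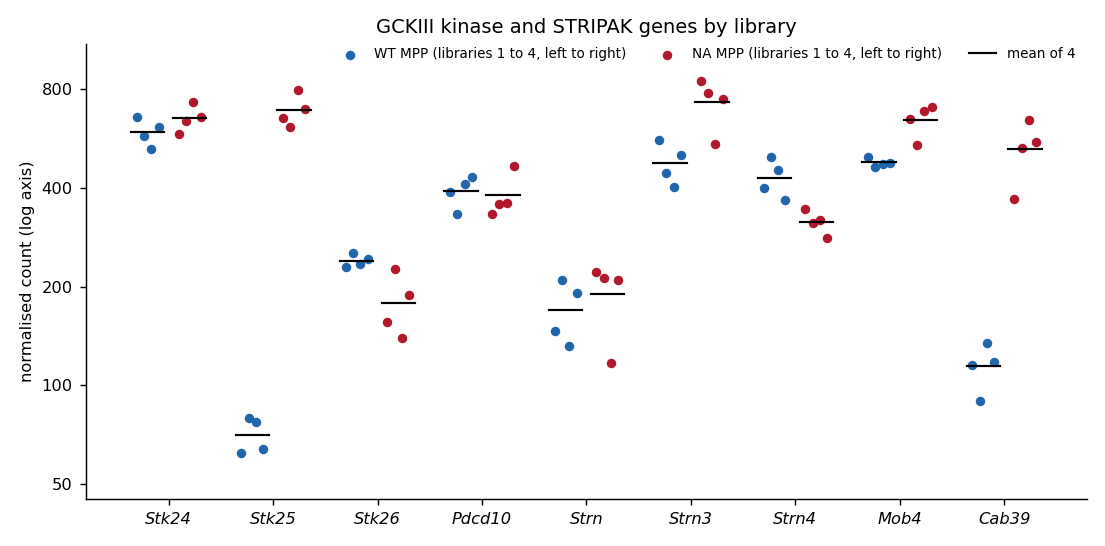
Normalised count (log axis) of the 9 genes in each library, with WT in blue, NA in red, libraries 1 to 4 from left to right in each group and a bar at the mean of 4. Stk25 and Cab39 have wide gaps between the groups, from 79.3 to 612 and from 135 to 370. The groups overlap for Stk24, Pdcd10, Strn and Strn3.

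Set against its paralogs, Stk25 was the least abundant GCKIII transcript in WT and about level with Stk24 in NA by normalised counts. The merged exons of Stk24, Stk25 and Stk26 are of like length (5353, 5812 and 5271 bases), so shares of counts and of counts per kilobase of merged exons differ little. Their longest transcripts are less alike (2676, 4249 and 3639 bases), and shares on that length were not computed. In NA1 to NA4 Stk25 made up 47.0%, 41.4%, 47.8% and 45.1% of the summed GCKIII counts, and in WT1 to WT4 it made up 6.55%, 8.71%, 9.23% and 6.94%. The mean share was 45.3 ± 2.86% in NA and 7.86 ± 1.31% in WT, a difference of 37.4 points. Per kilobase of merged exons the share was 43.2 ± 2.84% and 7.25 ± 1.21%. The share of counts without the fourth libraries was 45.4 ± 3.49% in NA and 8.16 ± 1.42% in WT, a difference of 37.2 points. Stk24 held 42.9 ± 0.859% in NA against 65.6 ± 3.03% in WT, and Stk26 held 11.8 ± 2.87% against 26.6 ± 1.79%. The smaller shares of Stk24 and Stk26 sat beside a larger sum: the 3 kinases together gave 1521 ± 115 normalised counts in NA and 905 ± 46.7 in WT, a 1.68-fold ratio. Sums in the 4 NA libraries lay between 1394 and 1666, above the WT range of 839 to 949, and the ratio was also 1.68 without the fourth libraries.

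The log2 ratio of Stk25 to Stk24 within a library does not depend on the scaling between libraries. It was 0.17, -0.07, 0.12 and 0.08 in NA, and -3.40, -2.87, -2.77 and -3.26 in WT. Stk25 and Stk24 were thus near parity in counts in all 4 NA libraries, and Stk25 was far below Stk24 in all 4 WT libraries. Against Stk26, the ratio was 1.97 ± 0.45 in NA and -1.77 ± 0.16 in WT, so the order of this pair was opposite in the groups. Without the fourth libraries the NA and WT means were 0.07 and -3.01 for the ratio to Stk24, and 2.01 and -1.72 for the ratio to Stk26.

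**Figure D2:**
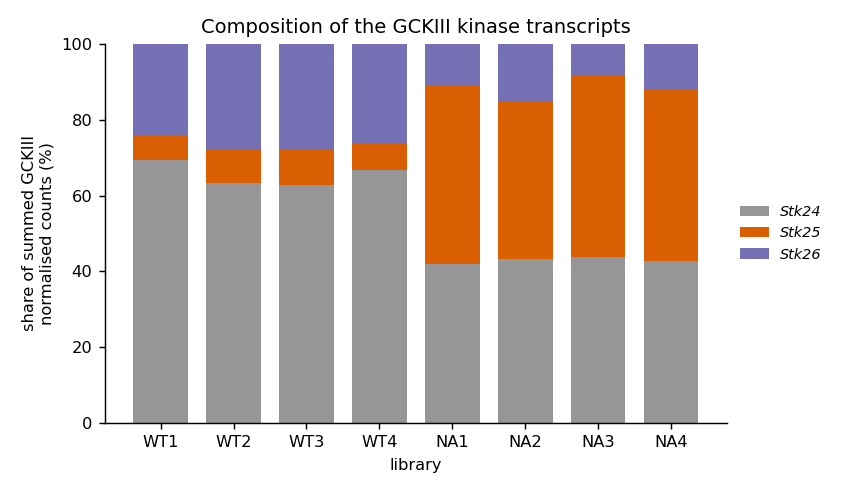
Share of the summed GCKIII normalised counts (%) held by Stk24, Stk25 and Stk26 in each library. The Stk25 segment spans 41.4% to 47.8% in the NA libraries and 6.55% to 9.23% in the WT libraries.

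Pdcd10 (chr3:75516490-75556856, minus strand), the adaptor that pairs with GCKIII kinases and is also known as the cerebral cavernous malformation (CCM) protein CCM3, was near level between the groups. It measured 333, 357, 361 and 468 in NA, and 389, 334, 410 and 431 in WT. The WT values all fell within the NA range. The means were 380 ± 59.9 and 391 ± 41.8, and the log2 difference was -0.05 ± 0.128 (-0.10 ± 0.15 without the fourth libraries).

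The striatins, the scaffolds that carry the PP2A subunits and anchor Pdcd10 with its kinase, went in different directions. Strn3 (chr12:51609632-51691897, minus strand) measured 851, 780, 546 and 745 in NA, and 559, 443, 402 and 506 in WT. NA3 fell just below WT1, and the other 3 NA libraries were above all WT libraries. The means were 731 ± 131 and 478 ± 69.3, a 1.53-fold ratio, and the log2 difference was 0.60 ± 0.141 (0.62 ± 0.179 without the fourth libraries).

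Strn4 (chr7:16815889-16840931, plus strand) measured 345, 313, 320 and 281 in NA, and 400, 498, 455 and 368 in WT. All NA libraries were below all WT libraries. The means were 315 ± 26.5 and 430 ± 58.0, 1.37-fold higher in WT, and the log2 difference was -0.44 ± 0.121 (-0.46 ± 0.149 without the fourth libraries). Strn (chr17:78649913-78737196, minus strand), the founding striatin, measured 221, 213, 117 and 209 in NA, and 146, 210, 132 and 191 in WT. NA3 was the lowest of all 8 libraries, and WT2 lay among the values of the other 3 NA libraries. The log2 difference was 0.15 ± 0.214 (0.15 ± 0.271 without the fourth libraries).

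As a family the striatins summed to 1236 ± 184 in NA and 1077 ± 68.4 in WT, a 1.15-fold ratio with overlapping ranges (983 to 1418 and 989 to 1151). Their make-up differed more than their sum. Strn3 held 58.9 ± 2.28% of striatin counts in NA and 44.3 ± 5.70% in WT, and Strn4 held 25.9 ± 4.5% and 40.0 ± 5.52%. Strn held about the same share in both, 15.2 ± 2.25% and 15.7 ± 2.78%. Per kilobase of merged exons Strn3 held 64.1 ± 2.35% in NA and 49.5 ± 5.81% in WT. In the log2 ratio of Strn3 to Strn4 the groups stood at 1.2 ± 0.29 and 0.15 ± 0.37, and each NA library was above each WT library. The NA library nearest to WT was NA3, at 0.77 against 0.48 in WT1. With the fourth libraries left out Strn3 held 58.4 ± 2.54% and 43.2 ± 6.47% of striatin counts, Strn4 held 27.0 ± 4.87% and 41.9 ± 5.06%, and the sums stood in a 1.14-fold ratio.

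Mob4 (chr1:55131231-55154899, plus strand), the MOB-family subunit of STRIPAK, measured 648, 540, 685 and 705 in NA, and 498, 465, 475 and 477 in WT. All NA libraries were above the tightly grouped WT libraries. The means were 644 ± 73.8 and 479 ± 13.8, a 1.35-fold ratio, and the log2 difference was 0.42 ± 0.103 (0.37 ± 0.137 without the fourth libraries).

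Cab39 (ENSMUSG00000036707, chr1:85793441-85851576, plus strand) had the next widest separation after Stk25. It measured 370, 530, 647 and 552 in NA, and 115, 89.5, 135 and 118 in WT. The groups did not overlap, although the NA libraries were more scattered for Cab39 than for Stk25, with coefficients of variation of 22.0% and 11.4%. The means were 525 ± 115 and 115 ± 19.0, a 4.58-fold ratio, and the log2 difference was 2.17 ± 0.175 (2.16 ± 0.229 without the fourth libraries).

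Cab39l, the paralog of Cab39 with a like scaffold role, measured 214, 221, 183 and 206 in NA, and 179, 200, 186 and 197 in WT (limma adjusted p = 0.594). Its ranges overlapped between the groups. Cab39 thus made up 71.2 ± 6.07% of the summed counts of this pair in NA and 37.4 ± 4.79% in WT, and 70.5 ± 6.15% and 36.6 ± 4.75% per kilobase of merged exons. Its share of counts without the fourth libraries was 70.6 ± 7.31% and 37.4 ± 5.87%. It was the more abundant of the pair in all NA libraries and the less abundant in all WT libraries.

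**Figure D3:**
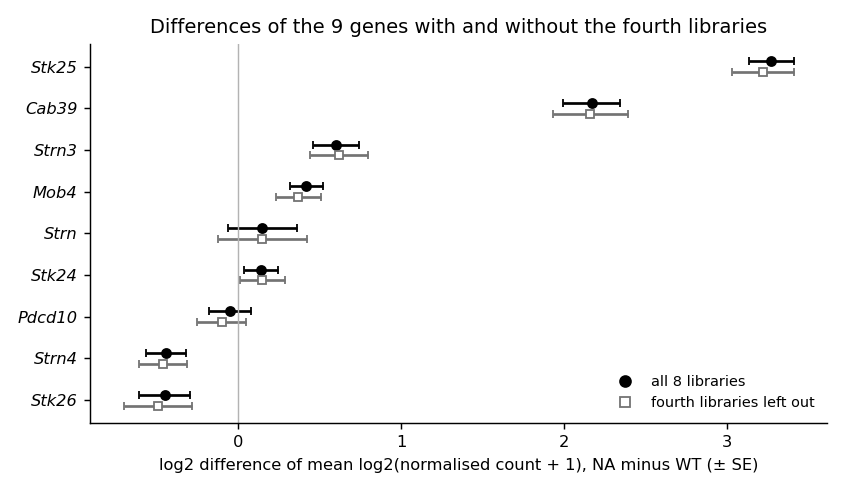
Log2 difference between NA and WT (mean of log2(normalised count + 1), NA minus WT, ± SE) of the 9 genes from all 8 libraries (filled circles) and without the fourth libraries (open squares). Stk25 at 3.27 and Cab39 at 2.17 stand apart from the other 7 genes, which lie between -0.45 and 0.60, and leaving out the fourth libraries moves no gene across 0.

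All 9 genes passed the low-value filter. In the limma fit across the 11451 tested genes, 4 of them (Stk25, Cab39, Strn3 and Mob4) were called higher in NA at an adjusted p below 0.05, where 10.1% of all tested genes were, and Strn4 was called lower, where 7.87% were. The groups did not overlap for 5 of the 9 (Stk25, Stk26, Strn4, Mob4 and Cab39), against 22.0% of all tested genes. Since this contrast was known when the genes were chosen, nothing is read from these counts. Without the fourth libraries only Stk25 and Cab39 were called, with 4.63% of 11117 tested genes called in all. With NA4 alone left out, 3 of the 9 were called, and Strn4 (log2 difference -0.39) and Mob4 (0.38) were not. Strn4 was also not called without WT2 (-0.37) or without WT3 (-0.41). Stk26 was called lower in 3 of the 18 fits, among them that with total-count scaling (log2 difference -0.52) and that without NA2 (-0.58).

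Levels of different genes are compared per kilobase of merged exons. In WT the order from high to low was Pdcd10 (133 ± 14.2), Stk24 (111 ± 10.4), Mob4 (98.6 ± 2.84), Strn3 (71.8 ± 10.4), Strn4 (54.1 ± 7.29), Stk26 (45.5 ± 2.03), Strn (19.1 ± 4.14), Cab39 (16.2 ± 2.68) and Stk25 (12.2 ± 1.53). Among neighbours in this WT order, the ranges were separate only between Mob4 and Strn3 and between Stk26 and Strn. Stk25 was thus at the bottom of the WT order, in the lowest set with Cab39 and Strn.

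In NA the order per kilobase was Mob4 (133 ± 15.2), Pdcd10 (129 ± 20.4), Stk24 (122 ± 11.3), Stk25 (119 ± 13.6), Strn3 (110 ± 19.7), Cab39 (74.1 ± 16.3), Strn4 (39.6 ± 3.33), Stk26 (33.7 ± 7.31) and Strn (21.5 ± 5.52). Neighbours in the NA order had separate ranges only between Cab39 and Strn4 and between Stk26 and Strn. Stk25 stood in place 9 in WT and in place 4 in NA, where it could not be separated from its adaptor Pdcd10 or its paralog Stk24 beyond their spread. With the longest transcript of each gene as the length, Stk25 measured 162 in NA and 16.6 in WT, and stood in places 5 and 9. On that length Stk24 measured 244 in NA, and its NA range of 218 to 273 lay above the 144 to 187 of Stk25. With NA4 and WT4 left out Stk25 was at 118 ± 16.6 in NA and 12.6 ± 1.62 in WT per kilobase of merged exons, again in places 4 and 9. The WT order was then as before, with separate ranges also between Strn4 and Stk26, and in NA Stk24 and Pdcd10 exchanged places.

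**Figure D4:**
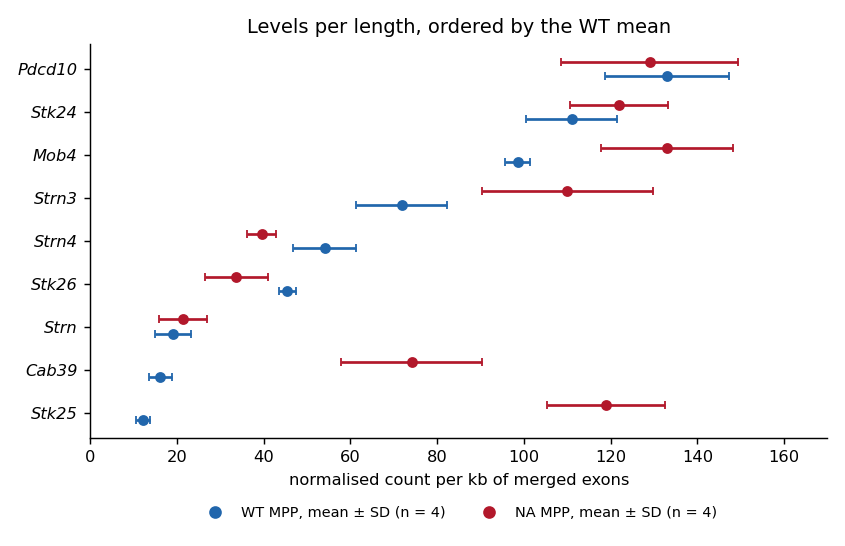
Normalised count per kilobase of merged exons of the 9 genes, ordered from the top by the WT mean, with WT in blue and NA in red (mean ± SD, n = 4). Stk25 is the lowest gene in WT at 12.2 and lies among the upper 4 in NA at 119, and Strn is low in both groups (19.1 and 21.5).

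The genes that lie around Stk25 on chromosome 1 were examined next. Farp2 lies on the opposite strand and ends within Stk25, sharing 1013 bases of exon, and the sources used here do not state whether counting used strand. Farp2 measured 24.3, 25.4, 5.54 and 13.0 in NA, and 7.99, 9.06, 3.42 and 7.99 in WT. All 8 Farp2 values were below the lowest Stk25 value of any library. The antisense gene Gm28536 spans the RefSeq start of Stk25, shares 358 bases of exon with it and has no row in the table. None of the nearest genes on either side was called: Sept2, a septin, was at 1084 ± 147 in NA and 892 ± 44.1 in WT (adjusted p = 0.0735), and Hdlbp, Bok and Thap4 had adjusted p-values of 0.679, 0.868 and 0.437.

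Over the 8 libraries, the genes whose pattern was most like that of Stk25 were Irf2bp2 (Pearson r = 0.9974 of log2 values), Morf4l1 (0.9973), Sdc4 (0.997), Ppp1cb (0.9966) and Sox4 (0.9952). This is a description among 11442 other genes, since the 8 points fall into 2 groups and any gene with a wide gap between them correlates with Stk25. In all, 180 genes had an r of at least 0.95. Of these 5, Sdc4, a cell-surface proteoglycan, was nearest to Stk25 in log2 difference (3.42), with 258 ± 15.1 in NA and 23.2 ± 2.22 in WT. Sox4, a transcription factor of progenitors, was at 2663 ± 256 and 609 ± 16.3.

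Genes of the immediate early and dissociation response also stood apart between the groups, and their level is set beside that of Stk25. Of 14 listed genes 12 were tested and 9 of these 12 were called higher in NA, against 10.1% of all tested genes. The list summed to 40654 to 47156 normalised counts in NA and 5616 to 16587 in WT. Among the WT libraries the sum was lowest in WT1 at 5616 and highest in WT2 at 16587, a 2.95-fold range, while Stk25 was at 62.1 and 79.3 in these libraries. Cab39 was at 115 and 89.5 in the same libraries, the opposite order. The part of this response in the differences of Stk25 and Cab39 was not tested.

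Genes that share pathways with the 9 were listed by function and entered the same fit. These lists were drawn up with earlier results of these data known, so their counts are descriptions. Of 82 listed genes 72 were tested, 15 were called higher in NA and 4 lower (26.4%, against 17.9% of all tested genes), and their median log2 difference was 0.03, against -0.011 over all tested genes. Without the fourth libraries 5 of the 72 were called, and without NA4 or without NA2 there were 11 calls. The genes named below with an adjusted p-value are from limma.

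Of the 12 other STRIPAK subunits listed, 9 were tested and 1 was called, which is 11.1%, against 17.9% of all tested genes (median log2 difference 0.03). The called gene was Ppp2r1a, the main PP2A scaffold subunit, which fell from 1069 ± 76.8 in WT to 817 ± 35.6 in NA (log2 difference -0.38 ± 0.085, adjusted p = 0.00701, and 0.085 without the fourth libraries). Ppp2ca, the PP2A catalytic subunit, was at 1320 ± 69.6 in NA and 1335 ± 72.3 in WT (adjusted p = 0.913). Slmap (361 ± 65.4 and 306 ± 21.7, adjusted p = 0.275) and Sike1 (140 ± 53.9 and 131 ± 20.9, adjusted p = 0.935), which encode peripheral subunits of the complex, were not called either.

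Among the CCM partners of Pdcd10 and their downstream genes, 9 of 9 were tested. Of these 2 were called higher and 1 lower (33.3%, against 17.9% of all tested genes). Map3k3, a kinase held in check by the CCM complex, rose from 105 ± 34.3 in WT to 236 ± 41.7 in NA (log2 difference 1.22 ± 0.243, adjusted p = 0.00383) and was called in all 18 fits. Krit1, the CCM1 scaffold, fell from 421 ± 29.4 to 319 ± 34.0 (adjusted p = 0.0247), and Rap1b, a small GTPase that binds Krit1, rose from 1681 ± 235 to 2174 ± 343 (adjusted p = 0.0472). Neither of these was called without the fourth libraries (adjusted p = 0.184 and 0.233). With 1 library left out at a time, Krit1 was not called without NA2, NA4, WT1 or WT4, and Rap1b was called only without NA1 or without WT2. Over all fits with 1 library left out, called or not, the log2 differences were -0.46 to -0.34 for Krit1 and 0.29 to 0.47 for Rap1b. Ccm2, the bridge between Krit1 and Pdcd10, was level at 855 ± 42.2 in NA and 839 ± 65.3 in WT (adjusted p = 0.854).

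In the LKB1 branch, in which Cab39 is the scaffold, 16 of 17 genes were tested. Of these 4 were called higher and 1 lower (31.2%, against 17.9% of all tested genes). Stk11, which encodes LKB1 itself, was at 394 ± 66.5 in NA and 384 ± 54.7 in WT (adjusted p = 0.896). Of the STRAD pseudokinases, Stradb fell from 171 ± 43.3 in WT to 104 ± 18.4 in NA (adjusted p = 0.0260, and 0.117 without the fourth libraries), and Strada was at 94.4 ± 15.3 in NA and 138 ± 31.8 in WT (adjusted p = 0.0765). With 1 library left out at a time, Stradb was not called without NA2, NA4, WT3 or WT4, and Strada was called without NA3 or without WT3. Over all these fits, called or not, the log2 differences were -0.83 to -0.55 for Stradb and -0.65 to -0.39 for Strada.

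Of the kinases that LKB1 activates, Mark3, a polarity kinase, rose from 159, 145, 154 and 174 in WT to 455, 458, 402 and 455 in NA. All NA libraries were above all WT libraries, with means of 442 ± 27.1 and 158 ± 12.2 (log2 difference 1.48 ± 0.116, adjusted p = 1.86e-06, called in all 18 fits). Sik1, a salt-inducible kinase, measured 132, 200, 295 and 169 in NA and 14.2, 139, 49.0 and 50.6 in WT. WT2 overlapped the NA range, and WT2 and WT1 were also the WT libraries with the highest and lowest sum of immediate early genes. Sik1 was called (log2 difference 1.98 ± 0.481, adjusted p = 0.0117), but not without the fourth libraries (adjusted p = 0.0624). Prkaa2, an AMPK catalytic subunit, rose from 17.6 ± 4.30 to 39.4 ± 11.5 (adjusted p = 0.0364, and 0.216 without the fourth libraries). With 1 library left out it was called only without NA1 or without WT2 (log2 differences of 0.95 to 1.26 over all such fits).

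In the MOB and Hippo genes, relatives and partners of Mob4, 13 of 18 were tested. Of these 4 were called higher and 1 lower (38.5%, against 17.9% of all tested genes). Stk38, a kinase activated by MOB proteins, fell from 652 ± 75.1 in WT to 422 ± 36.5 in NA (log2 difference -0.62 ± 0.11, adjusted p = 0.00180) and was called in all 18 fits. Mob1b (193 ± 36.7 in NA and 125 ± 12.4 in WT, adjusted p = 0.0222), Mob3c (159 ± 67.0 and 72.6 ± 14.1, adjusted p = 0.0188) and the Hippo kinase Lats2 (314 ± 86.9 and 177 ± 13.7, adjusted p = 0.0100) rose. None of these 3 was called without the fourth libraries (adjusted p = 0.144, 0.101 and 0.0807). Mob1b was also not called without NA2, NA4 or WT2 (log2 differences of 0.5 to 0.72 with 1 library left out), nor Mob3c without NA2 or NA4 (0.8 to 1.32). Of the Hippo effectors, Tead2 was present at 118 ± 25.4 in NA and 129 ± 30.6 in WT (adjusted p = 0.707). Yap1, Wwtr1 and Tead3 did not pass the low-value filter, and Tead1 and Tead4 were at 0 in all 8 libraries. Wwtr1 was low, at 15.6 ± 8.34 in NA and 2.15 ± 1.62 in WT.

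Of the 6 substrates and partners of GCKIII kinases, all tested, 1 was called (16.7%, against 17.9% of all tested genes). Ywhaz, a phosphoserine-binding adaptor protein known as a substrate of Stk25, rose from 1409 ± 166 in WT to 2410 ± 274 in NA (log2 difference 0.78 ± 0.101, adjusted p = 0.00017, called in all 18 fits). Golga2, the Golgi matrix protein that binds and activates Stk25 and Stk26, was level at 157 ± 25.9 in NA and 163 ± 31.4 in WT (adjusted p = 0.874). Among the other Ste20 kinases 19 of 20 were tested and 4 were called, all higher in NA (21.1%, against 17.9% of all tested genes). They included Taok3 (275 ± 50.7 against 152 ± 15.8, adjusted p = 0.00254), Stk3 (133 ± 35.2 against 76.6 ± 17.1, adjusted p = 0.0314) and Oxsr1, a kinase that binds Cab39 (291 ± 47.9 against 180 ± 39.6, adjusted p = 0.0134). These 3 were not called without the fourth libraries (adjusted p = 0.0535, 0.16 and 0.0907). Stk3 was also not called without NA2, NA4, WT2 or WT3 (log2 differences of 0.63 to 0.9 over all fits with 1 library left out).

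**Figure D5:**
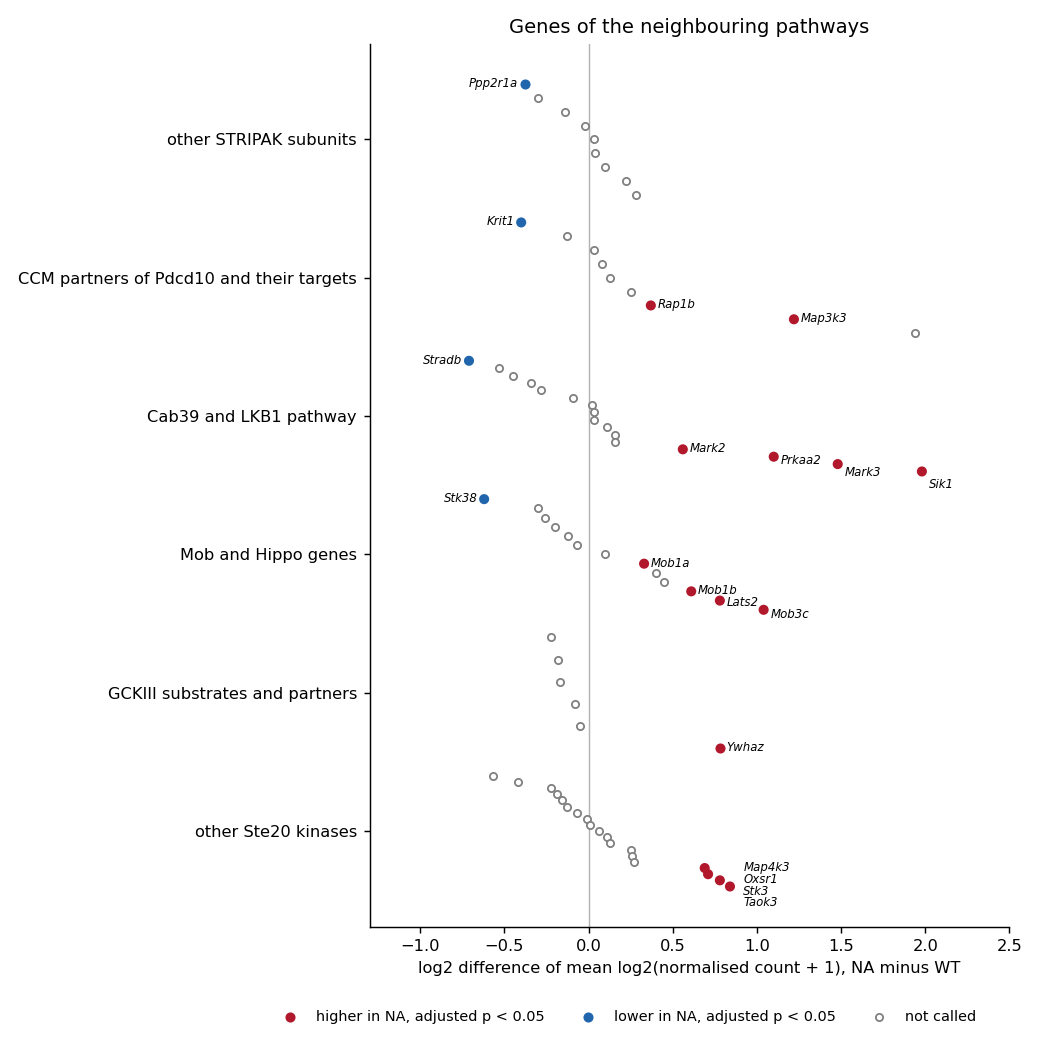
Log2 difference between NA and WT (mean of log2(normalised count + 1), NA minus WT) of the 72 tested genes in 6 pathway lists, with genes called higher in NA in red, called lower in blue and not called as open circles. The 9 other STRIPAK subunits lie between -0.38 (Ppp2r1a) and 0.28 (Fgfr1op2). Sik1 at 1.98 (called) and Klf4 at 1.94 (not called) lie furthest to the right, followed by Mark3 at 1.48 and Map3k3 at 1.22.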

How the data were processed

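RNA from aliquots of 1000 sorted MPPs was converted to cDNA, amplified and made into Nextera XT libraries. The authors used bcl2fastq, RSEM and DESeq2 with the mm10 build. Versions, annotation and the use of strand are not given in the sources used here. The deposited signal is named as raw counts but holds RSEM gene counts divided by 1 size factor per library, since 98.2% to 98.8% of values between 0.5 and 50 in each library were whole multiples (within 0.02) of a step of 0.888 to 1.181. Dividing the sum by the step gave the estimated reads. A planned count test on recovered reads was not run, because fractional assignments remained.

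Groups came from the sample titles. Values were tested with limma 3.58.1 (R 4.3.3) on log2(normalised count + 1), with a mean-variance trend, no covariates and Benjamini-Hochberg adjustment over the 11451 genes with at least 10 in at least 4 of 8 libraries, at a threshold of 0.05. A difference is one of mean logs, and the added 1 shrinks it for low genes. Names, lengths and coordinates came from GENCODE M21, which named 32916 rows, and promoters from RefSeq (GRCm38.p6).

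The 9 genes and the pathway lists were chosen with earlier results of these data known. Named pathway genes were those called, at most 3 highest and 3 lowest per list, and 12 core genes named whatever their values, of which 1 is not reported here. The sums of megakaryocyte (184 to 276 in NA, 202 to 275 in WT), erythroid (4611 to 5311, 4711 to 4891), B cell (101 to 239, 182 to 269), T and NK cell (148 to 171, 134 to 153) and stromal genes (51.7 to 192, 56.8 to 84.9) overlapped between the groups.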

Additional observations from a re-analysis of the deposited data

Results flagged for a closer look

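In 6 of 82 groups of 4 libraries examined, 1 library lay far from the other 3 of its group (Dixon's criterion). Chance alone flags about 5% of groups, or 4.1 here. NA3 was the library in question for 5 of these values. Its Strn value was 117 normalised counts, against 209 to 221 in the other NA libraries. In its striatin make-up Strn3 held 55.5%, against 59.7% to 60.3%, and Strn4 held 32.6%, against 22.8% to 24.4%. Mark3 was at 402 in NA3, against 455 to 458. Stk11 was also out of range in NA3, at 492 against 345 to 370. In NA2, Map3k3 was at 174, against 255 to 259 in the other NA libraries.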

How the results depend on the processing

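Over the 18 fits the log2 difference was 3.20 to 3.33 for Stk25 and 2.06 to 2.33 for Cab39, genes chosen with this contrast known. The Stk25 share of GCKIII counts was 36.6 to 38.8 points higher in NA with 1 library left out in turn. Per kilobase of merged exons it was 35.9 points higher with all libraries. Leaving out 1 library in turn gave 1106 to 2141 called genes (2053 with all), 1106 without NA4 and 1294 without WT4, 3 to 6 of the 9 genes (5 with all) and 11 to 22 pathway genes (19 with all). Without the fourth libraries 515 genes, 2 of the 9 and 5 pathway genes were called. Without a variance trend 3 of the 9 and 11 pathway genes were called. Total-count scaling called 2239 genes with 41.3% higher in NA, against 56.1% as deposited. Shares other than that of Stk25, sums, ratios between paralogs and levels per kilobase were computed without the fourth libraries after the data were seen. Per kilobase of the longest transcript Stk25 was at 162 in NA and 16.6 in WT, and Stk24 at 244 and 222.

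Some uncalled genes changed sign, while others, such as Stk24, Strn and Slmap, kept it in all fits. With total-count scaling Ccm2 was at -0.04, Sike1 at -0.03 and Stk11 at -0.04, and without the fourth libraries Sike1 was at -0.12. Leaving out 1 library gave ranges of 0.00 to 0.08 for Ccm2, -0.15 to 0.07 for Golga2, -0.04 to 0.02 for Ppp2ca, -0.19 to 0.18 for Sike1, -0.08 to 0.12 for Stk11 and -0.15 to 0.01 for Pdcd10. The cause was not tested.

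Deviations from the group mean were correlated between NA and WT libraries. Same-numbered pairs had r of 0.15, 0.001, 0.003 and 0.237, and differently numbered pairs had r of -0.142 to 0.179. The value of NA4 with WT4, 0.237, was the highest of all pairs. Whether same-numbered libraries share more than a number was not tested. With the replicate number as a block 2004 genes, 5 of the 9 and 20 pathway genes were called. The planned edgeR and DESeq2 fits were not run, since whole reads could not be recovered.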
